A study of Bombyx mori with 2 samples.

Results

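Lipases, the enzymes that release fatty acids from fats and related lipids, were examined in the heads of silkworm larvae. A gene was counted as a lipase when the name of its best BLAST hit in the deposited table held the word lipase and not the word phospholipase. This gave 53 of the 12376 gene models of the table, all named by similarity and not by a measured enzyme activity. The groups compared were the wildtype strain C603 and the *nm2* mutant, which was found within C603 and stops at the molt that ends instar 2. The mutant carries a deletion in the coding region of the cuticular protein gene *BmCPG10*. Both strains were fed mulberry leaves, though the mutant is described as eating less and hardly developing. Heads of 6 larvae per strain were pooled in the pre-molting stage of instar 2 and made into 1 digital gene expression library per strain. With 1 library per strain the spread between larvae was not measured, so no difference below has a replicate check and no p-value was computed. Both strains were collected as pre-molting, and the mutation, the lower food intake and any difference in developmental state cannot be told apart in these libraries.

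Insect lipases fall into a few families that differ in where they act. The pancreatic-type, or neutral, lipases are mostly secreted, and in the midgut of caterpillars they digest the lipids of the leaf. The lysosomal or gastric-type, or acid, lipases are related to the mammalian enzymes of the lysosome and the stomach and act inside lysosomes or in the gut lumen. Intracellular lipases, among them brummer and hormone-sensitive lipase, take apart the fat stored in lipid droplets, which a larva draws on while it does not feed. By their names 23 of the 53 genes were pancreatic-type, 16 lysosomal or gastric-type and 8 intracellular, and 6 had another or no class. No sequences are shown for these genes, because no sequence table was used here, and no positions are given, because the annotation used for neighbouring genes is of another genome build.

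The libraries held 12912619 clean reads (wildtype) and 12900347 clean reads (*nm2*), of which 55.48% and 60.12% mapped to genes. Expression is given in FPKM, the number of fragments scaled to the length of the gene and to the size of the library. *BmCPG10* itself (*BGIBMGA002602*) was at 117 FPKM in the wildtype and 278 FPKM in *nm2*. Genes that mark tissues were read beside the lipases. The digestive proteases of the midgut (33 trypsin and chymotrypsin genes) summed to 20411 FPKM in the wildtype (3 at 0) and 38186 FPKM in *nm2* (1 at 0), and 10 aminopeptidase N genes to 596 and 1523 FPKM. For the peritrophic matrix and intestinal mucin, which line the midgut (3 genes, none at 0), the sums were 1261 and 1618 FPKM, and for 16 vacuolar ATPase genes 4156 and 4291 FPKM. In the fat body lists, 20 genes for 30K and low molecular mass lipoproteins summed to 6197 and 19933 FPKM (5 and 3 at 0) and 5 storage protein and vitellogenin genes to 6008 and 10380 FPKM, although only 1 of the latter was called higher and 2 were called lower. Of the genes that mark the head, 6 opsins summed to only 7.40 and 8.49 FPKM (1 at 0 in each), 12 gustatory and odorant receptors to 11.0 and 5.90 FPKM (4 and 5 at 0), and 21 odorant-binding and chemosensory proteins to 5056 and 4706 FPKM (4 and 1 at 0). Muscle genes (17) summed to 44356 and 30848 FPKM, 6 silk gland genes to 4954 and 7428 FPKM, and 3 hemocyte genes to 23.4 and 32.1 FPKM. Midgut, fat body and silk gland transcripts were therefore present in the head libraries, and the summed levels of the fat body lists and of the midgut proteases were higher in *nm2*. Single members went both ways. Of 22 protease genes at 5 FPKM 8 were called higher and 3 lower, and of 9 aminopeptidase N genes 6 and 2. In the peritrophic matrix and mucin list 1 was higher and 1 lower, and among 9 genes for 30K and related lipoproteins 8 and 1. Of 14 odorant-binding and chemosensory genes 8 were higher and 3 lower, though their sum was lower in *nm2*. Over all genes 8.83% were higher and 15% lower. The part of these tissues in the lipase differences was not tested. In a bulk library fewer cells of a type and less RNA per cell cannot be told apart.

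Lipases were found both higher and lower in *nm2*, with more lower than higher, as over all genes. A gene was called higher or lower in *nm2* when the log2 of (*nm2* + 1)/(wildtype + 1), with 1 FPKM added to each level, was 1 or more in size and the gene reached 5 FPKM in at least 1 library. Over all genes 9158 reached 5 FPKM, of which 8.83% were higher, 15% lower and 23.8% either. Of the 53 lipases 37 reached 5 FPKM, of which 7 were higher, 13 lower and 17 not called (54.1% called, beside the 23.8% of all genes), while 16 stayed under 5 FPKM in both libraries. Of the called lipases, 9 of the 13 lower and 4 of the 7 higher reached 5 FPKM only in the library where they were high. Such genes are prone to be called, as 621 of 1026 genes at 5 FPKM in the wildtype alone were lower and 317 of 525 genes at 5 FPKM in *nm2* alone were higher. Of the 23 lipases at 5 FPKM or more in both libraries, 3 were higher, 4 lower and 16 not called, beside 492 higher and 750 lower of 7607 genes overall.

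The differences of the lipases spread around the level of the rest of the genes. The median log2 difference of the 46 lipases at 1 FPKM or more in a library was -0.08 (from -3.84 to 3.45), and that of the 11235 genes at this level was -0.28. With *nm2* rescaled so that the median log2 ratio of genes expressed in both libraries was 0, the lipase median turned positive (0.14) and 11 lipases were higher and 12 lower, beside 1151 higher and 929 lower of all genes. All lipases summed to 11402 FPKM in the wildtype and 13409 FPKM in *nm2*, which was 0.990% and 1.13% of the summed FPKM of the libraries. Without *BGIBMGA010400*, the most abundant lipase, the sums were 4613 and 4845 FPKM.

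**Figure D1:**
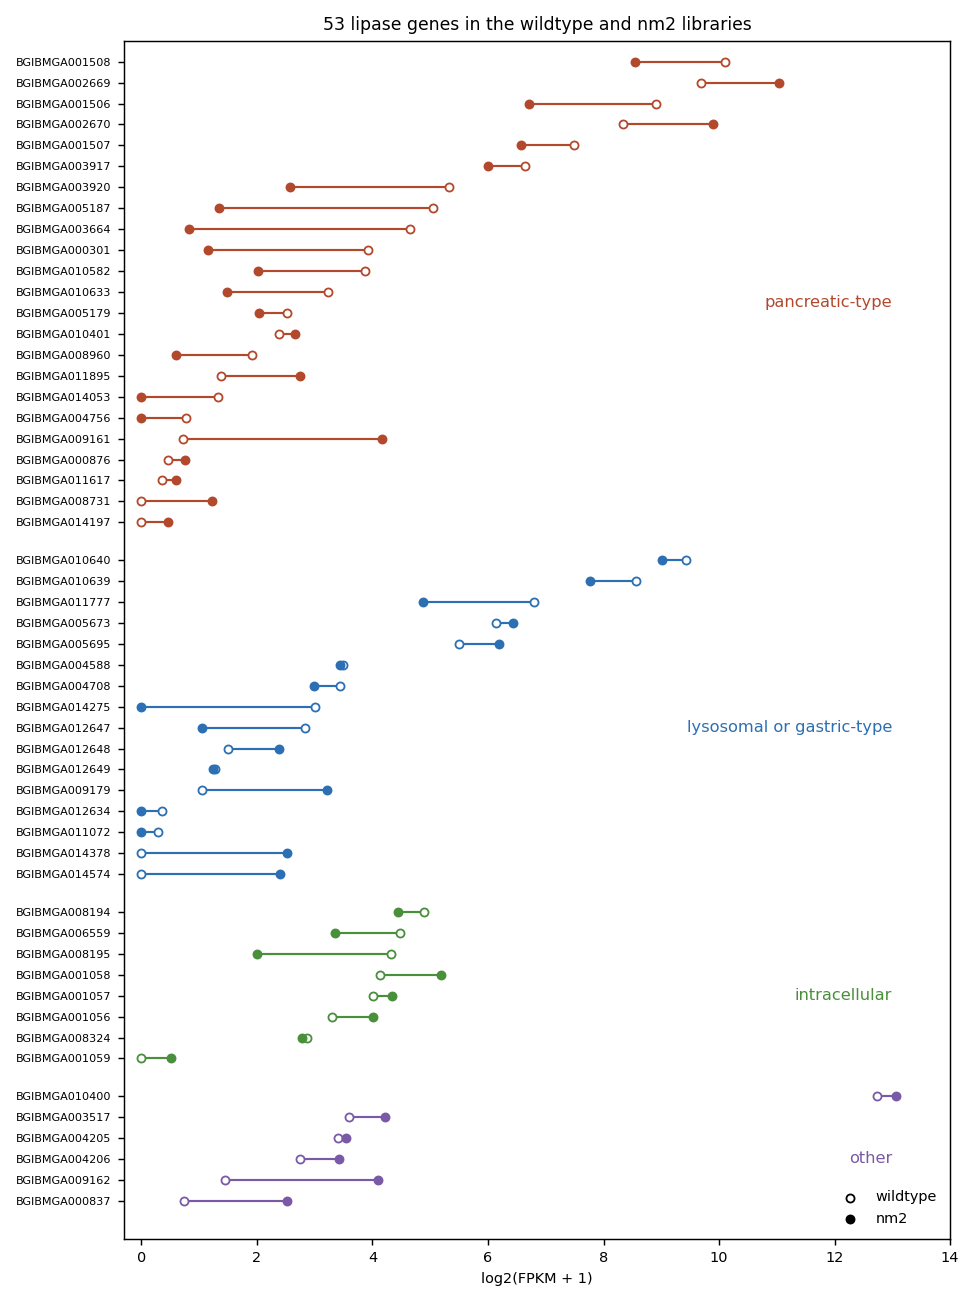
Each of the 53 lipase genes by class, as log2(FPKM + 1) in the wildtype library (open circles) and the *nm2* library (filled circles), with a line joining both values of a gene and no error bars, since each strain had 1 library. Among the abundant pancreatic-type genes *BGIBMGA001508* and *BGIBMGA001506* lie lower in *nm2* and *BGIBMGA002669* and *BGIBMGA002670* higher, while *BGIBMGA010400* at the far right lies close in both.

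The pancreatic-type lipases held most of the called genes, with a few very abundant members going in opposite directions. Of 23 genes 15 reached 5 FPKM, of which 8 were lower in *nm2*, 4 higher and 3 not called (80% called, beside 23.8% of all genes). Of these, 6 of the lower and 2 of the higher reached 5 FPKM in 1 library alone, and the 6 genes at 5 FPKM in both libraries were 2 higher, 2 lower and 2 not called. The median log2 difference of the 19 genes at 1 FPKM or more was -1.31. The summed level of the class was nevertheless not lower in *nm2* (3142 FPKM in the wildtype and 3720 FPKM in *nm2*, a ratio of 1.18). That ratio depended on single genes, in either direction. Without *BGIBMGA002669* the sums were 2320 and 1629 FPKM, a ratio of 0.702. With models that share a best hit counted once, which leaves out *BGIBMGA001506*, the ratio was 1.36.

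The most abundant pancreatic-type gene of the wildtype was *BGIBMGA001508*, named pancreatic lipase-related protein 2-like after a mammalian enzyme that cleaves triacylglycerols and galactolipids. It was at 1095 FPKM in the wildtype and 372 FPKM in *nm2*. For 19 lipases the number of reads behind the FPKM could be recovered from the coding length, and for these the ratio of reads is given with a 95% interval that covers counting error only and not the spread between larvae. The recovered reads are on a scale of 52.6% (wildtype) and 52.3% (*nm2*) of the reads mapped to genes, so read numbers and the width of the intervals hold for that scale. The 19 had a length because the authors list it for genes they called as different, so they are not a neutral sample of the lipases. That call was made on these same 2 libraries. Intervals that lie away from 1 follow from it and are no separate evidence of a difference. The called genes *BGIBMGA001058*, *BGIBMGA010633*, *BGIBMGA011895* and *BGIBMGA014275* were not among the 19. For *BGIBMGA001508* the recovered reads were 3936 and 1440, which is 2.95-fold lower in *nm2* (2.77 to 3.13).

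*BGIBMGA001506*, which has the same best hit as *BGIBMGA001508*, was at 478 FPKM in the wildtype and 104 FPKM in *nm2*, 4.60-fold lower by reads (4.09 to 5.17). Both models match the same RefSeq gene, so their calls are not separate evidence, and whether they are pieces of 1 gene was not tested. The gene model numbered between them, *BGIBMGA001507* (pancreatic triacylglycerol lipase-like), was at 178 FPKM in the wildtype and 94.0 FPKM in *nm2*. Its log2 difference of -0.91 was just outside the limit. These 3 genes together held 55.7% of the summed pancreatic-type FPKM in the wildtype (1751 FPKM) and 15.3% in *nm2* (570 FPKM).

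A different pair was higher in *nm2*. *BGIBMGA002669* (lipase member H-A-like, where the mammalian lipase H releases lysophosphatidic acid) was at 822 FPKM in the wildtype and 2091 FPKM in *nm2*, 2.54-fold higher by reads (2.47 to 2.62). *BGIBMGA002670*, whose hit is the silkworm gene lipase-1, was at 322 FPKM in the wildtype and 949 FPKM in *nm2*, 2.95-fold higher (2.76 to 3.15). Their RefSeq genes lie next to each other on the chromosome, yet they are separate genes with separate hits. The pair held 36.4% of the summed pancreatic-type FPKM in the wildtype (1144 FPKM) and 81.7% in *nm2* (3040 FPKM). Thus, with *BGIBMGA010400* not counted in the class, the abundant pancreatic-type transcripts of the wildtype library were mostly those of *BGIBMGA001506* to *BGIBMGA001508*. In the *nm2* library they were mostly those of *BGIBMGA002669* and *BGIBMGA002670*. The other 18 genes held 7.86% (247 FPKM) and 2.98% (111 FPKM).

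**Figure D2:**
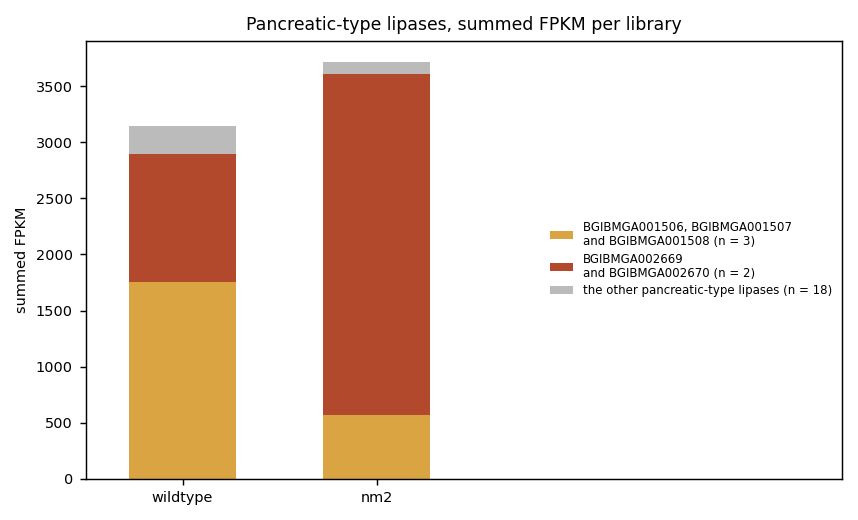
Summed FPKM of the 23 pancreatic-type lipases in the wildtype and *nm2* libraries (1 library each, no error bars), split into 3 sets of genes. *BGIBMGA001506*, *BGIBMGA001507* and *BGIBMGA001508* make up 1751 of 3142 FPKM in the wildtype and 570 of 3720 FPKM in *nm2*, and *BGIBMGA002669* with *BGIBMGA002670* 1144 and 3040 FPKM.

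A further 6 pancreatic-type lipases, at 8 to 40 FPKM in the wildtype, were below 5 FPKM in *nm2*. *BGIBMGA003664* (pancreatic lipase-related protein 2-like) was at 24.2 FPKM in the wildtype and 0.76 FPKM in *nm2*. This is 88 against 3 reads, 31.6-fold lower with a wide interval (10.5 to 156). *BGIBMGA005187* (pancreatic triacylglycerol lipase-like) was at 32.0 FPKM in the wildtype and 1.53 FPKM in *nm2*, 20.9-fold lower (8.66 to 65.8). With 1 FPKM added to each level these 2 genes showed the largest log2 differences below 0 of all lipases (-3.84 and -3.71). With 0.1 FPKM added, *BGIBMGA014275*, listed at 0 in *nm2*, lay below them (-6.15, beside -4.82 and -4.30). Its value is set by the amount added to a 0, and it had no recovered reads, so it cannot be ranked against them.

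*BGIBMGA000301* (pancreatic triacylglycerol lipase-like) was at 14.2 FPKM in the wildtype and 1.21 FPKM in *nm2*, 11.7-fold lower (5.69 to 28.0). *BGIBMGA003920* was at 39.2 FPKM in the wildtype and 4.94 FPKM in *nm2*, 7.92-fold lower (4.95 to 13.3). Its hit is an inactive pancreatic lipase-related protein 1, a name given in mammals to a relative with little activity on fats. *BGIBMGA010582* (lipase member I-like, a mammalian relative of lipase H) was at 13.6 FPKM in the wildtype and 3.05 FPKM in *nm2*, 4.45-fold lower (2.01 to 11.1). *BGIBMGA010633* (lipoprotein lipase-like, after the mammalian enzyme that acts on circulating lipoproteins) was at 8.39 FPKM in the wildtype and 1.80 FPKM in *nm2*, a ratio of FPKM of 0.215 with no recovered reads. All 6 reached 5 FPKM in the wildtype library alone.

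Low pancreatic-type genes could also be higher in *nm2*. *BGIBMGA009161* (pancreatic lipase-related protein 2-like) was at 0.65 FPKM in the wildtype and 17.0 FPKM in *nm2*. With 1 read against 28 the ratio was 26.0 and its interval ran from 4.30 to 1062. *BGIBMGA011895* (pancreatic triacylglycerol lipase-like) was at 1.61 FPKM in the wildtype and 5.72 FPKM in *nm2*, a log2 difference of 1.36, and its call was lost when both libraries were rescaled to the same sum, where its log2 difference was still 1.28 but its level fell short of 5 FPKM. *BGIBMGA008731* was listed at 0 in the wildtype and at 1.34 FPKM in *nm2*, and *BGIBMGA014053* at 1.52 FPKM in the wildtype and at 0 in *nm2*. Neither level allows a fold.

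The remaining members of the class differed less or were scarcely expressed. *BGIBMGA003917* (pancreatic triacylglycerol lipase-like), which neighbours *BGIBMGA003920* in RefSeq, was at 98.6 FPKM in the wildtype and 63.0 FPKM in *nm2*. The neighbours thus differed in size, with log2 differences of -0.64 and -2.76. *BGIBMGA010401* (inactive pancreatic lipase-related protein 1-like) was at 4.21 FPKM in the wildtype and 5.30 FPKM in *nm2*. *BGIBMGA005179* was at 4.73 and 3.10 FPKM and *BGIBMGA008960* at 2.78 and 0.52 FPKM. The last 4 (*BGIBMGA000876*, *BGIBMGA004756*, *BGIBMGA011617* and *BGIBMGA014197*) stayed below 1 FPKM in both libraries.

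Of the 16 lysosomal or gastric-type lipases 10 reached 5 FPKM. Of these, 3 were lower in *nm2*, 1 was higher and 6 were not called (40% called, beside 23.8% of all genes). Among the called genes, 2 of the lower and the 1 higher reached 5 FPKM in 1 library alone. The 7 genes at 5 FPKM in both libraries were 1 lower and 6 not called. The median log2 difference of the 14 genes at 1 FPKM or more was -0.05, and 0.17 with the median of genes set to 0. Their summed level was 1327 FPKM in the wildtype and 957 FPKM in *nm2*, a ratio of 0.721. Whether the classes differ in their response was not tested, since genes are not replicates of a strain.

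A pair of genes named lipase 1-like carried most of the class. *BGIBMGA010640* was at 686 FPKM in the wildtype and 516 FPKM in *nm2*, 51.7% and 53.8% of the class. *BGIBMGA010639* was at 379 FPKM in the wildtype and 215 FPKM in *nm2*, a log2 difference of -0.81. Neither passed the limit, though both were at a lower level in *nm2*. The abundant member that did pass was *BGIBMGA011777* (lipase 1-like), at 110 FPKM in the wildtype and 28.5 FPKM in *nm2*, 3.87-fold lower (3.20 to 4.70). *BGIBMGA005673* (lipase 1-like) was at 69.1 FPKM in the wildtype and 84.9 FPKM in *nm2*. *BGIBMGA005695*, whose hit is the silkworm acid lipase-1, was at 44.2 FPKM in the wildtype and 72.4 FPKM in *nm2*, not called with a log2 difference of 0.70.

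Several acid lipases of low level stood at very different levels in the libraries. *BGIBMGA012647* (lipase 1-like) was at 6.15 FPKM in the wildtype and 1.08 FPKM in *nm2*, 5.60-fold lower (2.12 to 18.7). *BGIBMGA014275*, with the same best hit, was at 7.02 FPKM in the wildtype and listed at 0 in *nm2*. These models may stand for 1 gene, which was not tested. *BGIBMGA009179* (lipase 1-like) was in contrast at 1.06 FPKM in the wildtype and 8.25 FPKM in *nm2*, 7.79-fold higher (3.09 to 25.2).

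Another pair was listed at 0 in the wildtype and just below the 5 FPKM needed for a call in *nm2*. *BGIBMGA014574* (lipase 1-like) had 4.26 FPKM in *nm2*, from 21 reads, which is 6.49-fold higher than a floor of 3 counts in the wildtype library and at least 4.83-fold higher by the lower 95% limit of the read ratio. *BGIBMGA014378* (lipase 3-like) had 4.71 FPKM from 17 reads, 5.26-fold higher than the same floor and at least 3.83-fold higher by the lower limit.

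The other 6 genes of the class were close in both libraries or low. *BGIBMGA004588* (lipase 1-like) was at 10.3 FPKM in the wildtype and 9.82 FPKM in *nm2*. *BGIBMGA004708* (lipase 3-like) was at 9.77 FPKM in the wildtype and 6.92 FPKM in *nm2*. *BGIBMGA012648* was at 1.82 and 4.23 FPKM and *BGIBMGA012649* at 1.41 and 1.35 FPKM (both lipase 1-like). *BGIBMGA011072* and *BGIBMGA012634* were below 1 FPKM in the wildtype and listed at 0 in *nm2*.

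**Figure D3:**
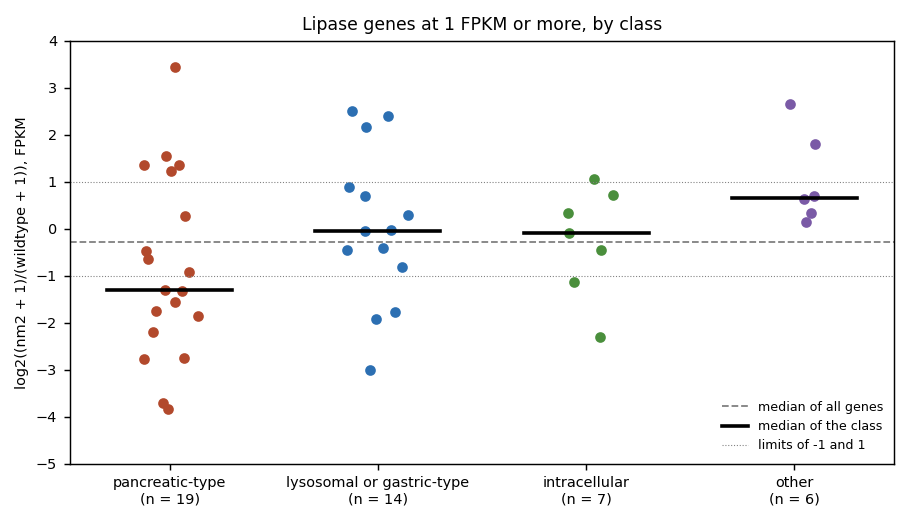
Log2((*nm2* + 1)/(wildtype + 1)) of FPKM for the lipases at 1 FPKM or more in a library, by class, with 1 point per gene, a bar at the median of each class, a dashed line at the median of all genes (-0.28) and dotted lines at the limits for a call. The pancreatic-type median is -1.31 and the lysosomal or gastric-type, intracellular and other medians are -0.05, -0.09 and 0.66, with points on both sides of 0 in the first 3 classes.

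Intracellular lipases were expressed at modest levels, all below 40 FPKM, and differed in both directions. Of 8 genes 7 reached 5 FPKM, of which 2 were lower in *nm2*, 1 was higher and 4 were not called. This is 42.9% called, beside 23.8% of all genes, and in a list of 7 each gene weighs heavily. Of the 2 lower, *BGIBMGA008195* reached 5 FPKM in the wildtype alone. The median log2 difference was -0.09 over 7 genes, and 0.15 with the median of genes set to 0. The class summed to 115 FPKM in the wildtype and 109 FPKM in *nm2*, a ratio of 0.942 that passed to the other side of 1 (1.15) under the same rescaling.

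The genes for adipose triglyceride lipase, which is called brummer in the fruit fly and takes the first fatty acid from stored triacylglycerol, were each at a higher level in *nm2*. *BGIBMGA001058* was at 16.5 FPKM in the wildtype and 35.3 FPKM in *nm2*, and its log2 difference of 1.06 was just inside the limit. *BGIBMGA001057* was at 15.1 FPKM in the wildtype and 19.2 FPKM in *nm2*. *BGIBMGA001056* was at 8.84 FPKM in the wildtype and 15.2 FPKM in *nm2*, a log2 difference of 0.72 outside the limit. *BGIBMGA001059* was listed at 0 in the wildtype and at 0.43 FPKM in *nm2*. These 4 models have consecutive numbers and *BGIBMGA001057* and *BGIBMGA001058* share a best hit, so they may stand for fewer genes. *BGIBMGA008324* (hormone-sensitive lipase-like), which in mammals goes on to cleave diacylglycerol, was at 6.32 FPKM in the wildtype and 5.86 FPKM in *nm2*.

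The lower members were lipases of later or other steps. *BGIBMGA008195* (monoacylglycerol lipase ABHD12-like, in mammals a hydrolase of monoacylglycerols and lysophosphatidylserine) was at 18.9 FPKM in the wildtype and 3.02 FPKM in *nm2*, 6.27-fold lower (3.97 to 10.4). *BGIBMGA008194*, with the same name and the number before it, was at 28.7 FPKM in the wildtype and 20.6 FPKM in *nm2* and was not called. *BGIBMGA006559* (sn1-specific diacylglycerol lipase beta-like), which in mammals makes the signalling lipid 2-arachidonoylglycerol, was at 21.1 FPKM in the wildtype and 9.15 FPKM in *nm2*, 2.31-fold lower (1.67 to 3.23). It was just inside the limit, and its call was lost with the median of genes set to 0 (log2 difference -0.87).

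Among the 6 lipases of other or no class, 1 gene outweighed every other lipase in both libraries. *BGIBMGA010400*, named triacylglycerol lipase precursor, was at 6789 FPKM in the wildtype and 8564 FPKM in *nm2* and ranked 19 of all genes in each library. It made up 59.5% and 63.9% of all lipase FPKM, and its log2 difference of 0.34 was far from the limit. In RefSeq it is separated by 2 genes from the gene of *BGIBMGA010401*, a pancreatic-type model at 4.21 and 5.30 FPKM, and was not counted as pancreatic-type because its name gives no class. The name of *BGIBMGA002670* gives no class either, but that gene was counted as pancreatic-type, as a neutral lipase. Had *BGIBMGA010400* been counted too, it would outweigh the 3142 FPKM (wildtype) and 3720 FPKM (*nm2*) of the class.

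Also in this class was *BGIBMGA009162*, a putative lipase, at 1.74 FPKM in the wildtype and 16.2 FPKM in *nm2*, 9.28-fold higher (3.35 to 35.7). Its number follows that of the pancreatic-type *BGIBMGA009161*, which was higher as well. The other 4 were bile salt-activated lipase-like genes, named after a mammalian digestive enzyme of the carboxylesterase family. Each was at a higher level in *nm2* with none called, beside 3871 at a higher level of the 11235 genes at 1 FPKM or more. *BGIBMGA000837* was at 0.66 FPKM in the wildtype and 4.76 FPKM in *nm2*, short of 5 FPKM but 7.19-fold higher by reads (2.54 to 28.0). *BGIBMGA003517* was at 11.0 and 17.7 FPKM, and the RefSeq neighbours *BGIBMGA004205* and *BGIBMGA004206* were at 9.56 and 10.6 FPKM and at 5.67 and 9.75 FPKM.

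**Figure D4:**
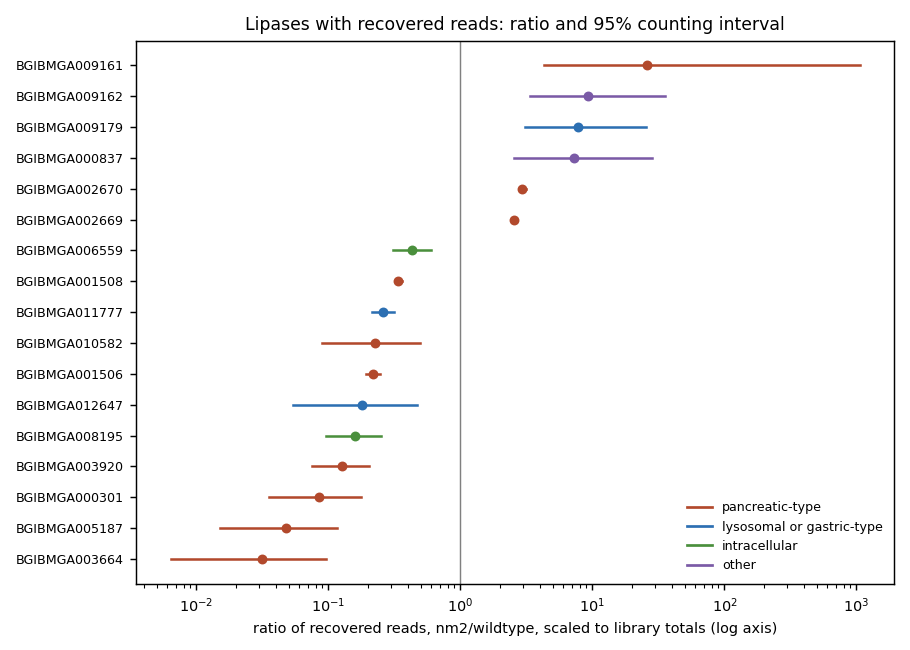
Ratio of recovered reads (*nm2*/wildtype, scaled to the library totals, log axis) for the 17 lipases with recovered reads in both libraries, with 95% counting intervals as bars and classes by colour. No interval crosses 1, which follows from the choice of the genes, since the authors had called them as different in these same libraries. The intervals range from narrow for *BGIBMGA002669* (2.47 to 2.62) to very wide for *BGIBMGA009161* (4.30 to 1062).

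Called lipases were found at high and at moderate levels. Of 9 lipases whose higher level was 100 FPKM or more, 2 were higher and 3 lower, of 9 between 20 and 100 FPKM 1 was higher and 4 lower, and of 19 between 5 and 20 FPKM 4 were higher and 6 lower. Every called lipase between 5 and 20 FPKM was below 5 FPKM in the other library, and such genes are prone to be called. Of all genes at 5 FPKM 23.8% were called, and their shares by level were not computed. Below 5 FPKM, where no call was possible, were 9 lipases at 1 to 5 FPKM and 7 under 1 FPKM.

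Lists of other lipid genes were read beside the same shares of all genes (8.83% higher, 15% lower and 23.8% either), from which small lists such as these can depart by 1 gene. The phospholipase list was taken by name. Most phospholipases cleave membrane lipids, but the list also held phospholipase A-2-activating proteins, and not every member need be such an enzyme. It had 1 of 12 genes at 5 FPKM called, *BGIBMGA011071* (phospholipase D3-like) at 9.95 FPKM in the wildtype and 22.0 FPKM in *nm2*. The median log2 difference of the list was -0.27. The uncalled *BGIBMGA003771* (group XV phospholipase A2-like, a lysosomal enzyme in mammals) was at 21.9 and 40.6 FPKM and *BGIBMGA005189* (phospholipase C beta 1, a signalling enzyme) at 3.74 and 1.16 FPKM. Of 11 triacylglycerol synthesis genes at 5 FPKM 1 was higher, *BGIBMGA003969* (putative phosphatidate phosphatase-like, an enzyme that makes diacylglycerol) at 0.73 and 10.2 FPKM, and the median was -0.10. The enzymes of the last step, *BGIBMGA013552* and *BGIBMGA013553* (diacylglycerol O-acyltransferase 1-like), were at 11.0 and 9.38 FPKM and at 21.0 and 29.4 FPKM.

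On the side of storage, all 4 lipid droplet protein genes were at a higher level in *nm2*, and 1 was called (25% of the list). *BGIBMGA013593* (perilipin, a coat protein of lipid droplets) was at 42.7 FPKM in the wildtype and 155 FPKM in *nm2*, and the median log2 difference of the list was 0.63. *BGIBMGA009933* (perilipin-4-like) was at 49.3 and 72.6 FPKM and *BGIBMGA000088* (seipin-like, a protein of droplet formation) at 6.28 and 10.8 FPKM. Of 5 fatty acid-binding protein genes at 5 FPKM 1 was higher, *BGIBMGA012943* at 39.4 and 87.9 FPKM, and *BGIBMGA012942*, not called, was at 60.4 and 30.6 FPKM. A list of 5 genes held lipophorins, which carry lipids in the hemolymph, and their receptors. Of these 1 was higher, *BGIBMGA002661* (lipophorin receptor) at 11.1 and 28.4 FPKM, while the receptor model *BGIBMGA002662* was at 40.1 and 46.1 FPKM. The models named apolipophorins were at 609 and 406 FPKM (*BGIBMGA013342*) and at 111 and 148 FPKM (*BGIBMGA013341*).

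On the side of use, 26 fatty acid oxidation genes reached 5 FPKM, of which 3 were higher and 2 lower, with a median log2 difference of -0.48 (19.2% called). The largest difference was that of *BGIBMGA012661* (3-ketoacyl-CoA thiolase, the last step of a round of oxidation) at 2.96 and 27.5 FPKM. Peroxisomal acyl-coenzyme A oxidases went both ways: *BGIBMGA002577* was at 11.3 and 31.0 FPKM and *BGIBMGA002578* at 16.8 and 38.1 FPKM, while *BGIBMGA002716* was at 41.3 and 14.5 FPKM and *BGIBMGA002573* at 10.7 and 3.10 FPKM. Among 5 genes at 5 FPKM for glycerol use 2 were higher and 1 lower. *BGIBMGA012560* (glycerol-3-phosphate dehydrogenase-1) was at 55.8 and 120 FPKM and *BGIBMGA013299* (glycerol kinase-like) at 3.68 and 9.37 FPKM, while *BGIBMGA006858* (Glycerol kinase-2) was at 10.3 and 4.0 FPKM.

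Adipokinetic hormone, the peptide that mobilises stored fat in insects, had models at 1.52 and 2.21 FPKM in the wildtype (*BGIBMGA008672* and *BGIBMGA008722*), both listed at 0 in *nm2*. Both were below the level needed for a call, and neither level allows a fold, so a loss in *nm2* cannot be read from them. Its receptor (*BGIBMGA002767*) was at 39.5 FPKM in the wildtype and 46.5 FPKM in *nm2*. No gene was named colipase, the protein that mammalian pancreatic lipase needs on fat droplets.

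**Figure D5:**
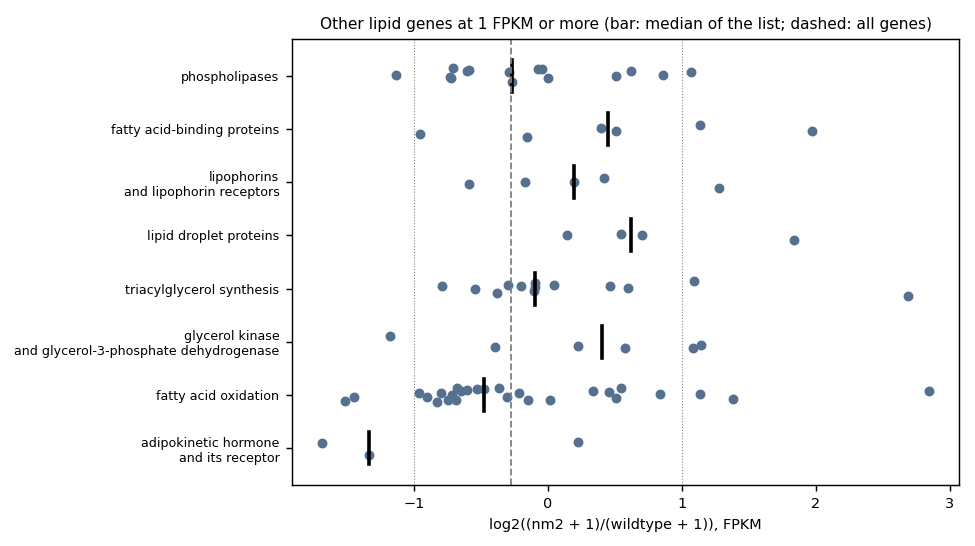
Log2((*nm2* + 1)/(wildtype + 1)) of FPKM for genes at 1 FPKM or more in 8 lists of lipid handling, with 1 point per gene, a bar at the median of each list, a dashed line at the median of all genes (-0.28) and dotted lines at -1 and 1. Medians run from -0.48 for fatty acid oxidation to 0.63 for lipid droplet proteins, except the 3 genes of adipokinetic hormone and its receptor at -1.33. Of these 3, 2 stayed under 5 FPKM and were listed at 0 in *nm2*.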

How the data were processed

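Total RNA from pooled heads was enriched for poly(A) RNA and sequenced. The authors aligned the clean reads, 49 bases long, to the SilkDB genes and deposited FPKM values computed with RSEM, clean read counts per library, the percent of reads mapped and, for genes they called as different, a coding length and their own fold changes and p-values, which were not used. Lipases, classes, lists and tissue markers were taken by the deposited BLAST names (protease inhibitors and myosins not named as muscle left out) and were chosen with earlier results of these data known. Genes were called by size only (pseudocount 1 FPKM, log2 limit 1, at least 5 FPKM in a library), and medians used genes at 1 FPKM or more. Named were all called lipases, the 5 most abundant of each class, those at 0 in 1 library and 1 FPKM or more in the other, those next to the limits, and up to 3 genes of each lipid list with the largest differences, with some others added.

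Read numbers were recovered as the smallest library totals that made low FPKM values whole, with 36 bases taken off the coding length: 3766000 reads (wildtype, 90.3% of 134 values within 0.1 of a whole number) and 4059000 (*nm2*, 97.1% of 210). They make up 52.6% (wildtype) and 52.3% (*nm2*) of the gene-mapped reads, a gap that was not resolved, so read numbers and intervals may be off by that factor. Ratios have exact conditional binomial 95% intervals (SciPy 1.17.1), which cover counting error only, and 3 counts were the floor for a gene at 0. The steps were tested on simulated data. RefSeq gene neighbours came from a table of another assembly, to which 24 lipases were matched by accession. Python 3.11.15, pandas 2.3.3 and NumPy 2.4.6 were used. Alternatives were 3 other scalings, another pseudocount, other limits, other class membership and no bases taken off the coding length.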

Additional observations from a re-analysis of the deposited data

How the results depend on the processing

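No paired analysis was possible because each strain had 1 library, and for the same reason no replicate could be left out. A grouping by the letters around the active-site serine was not run. Of the 20 called lipases 19 were kept after rescaling to an equal sum, 19 with the median of genes set to 0, 20 on the housekeeping genes, 20 with a pseudocount of 0.1 FPKM, 20 with no limit and 10 with a limit of 20 FPKM, and 0 changed sign. With the median of genes set to 0, 11 lipases were higher (main 7), 4 of the acid lipases and 2 of the other class were higher, 1 intracellular lipase was lower, and the medians were 0.14 (all lipases), -1.21 (pancreatic-type), 0.17 (acid), 0.15 (intracellular) and 0.93 (other). The pancreatic-type median was -1.21 after rescaling to an equal sum and -1.56 with a pseudocount of 0.1 FPKM. With no limit, 11 lipases, 3 acid lipases and 2 of the other class were higher, and the medians were -0.77 (pancreatic-type), -0.17 (acid) and 0.12 (intracellular). With a limit of 20 FPKM 3 lipases were higher and 7 lower (median -0.73), of which 2 and 5 were pancreatic-type (median -1.56), 0 and 1 acid (median -0.41), 1 intracellular lower (median -0.46) and 0 of the other class higher (median 0.34). Fewer genes pass that limit by its construction. In alternatives chosen after seeing the data, counting *BGIBMGA010400* as pancreatic-type gave a median of -1.11 and left the other class a summed ratio of 2.06. Counting models with a shared best hit once gave medians of -1.11 (pancreatic-type), 0.12 (acid) and -0.28 (intracellular). Without the most abundant member the summed ratios were 0.702 (pancreatic-type) and 2.06 (other). All 17 read ratios stayed within their intervals when no bases were taken off the length.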

Other observations

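Families with members that take up or activate fatty acids were looked at in 3 lists, taken by name and chosen after the values had been seen. Not every member need act on fatty acids released by lipases. Of 13 class B scavenger receptors and sensory neuron membrane proteins at 5 FPKM or more, relatives of the mammalian fatty acid receptor CD36, 6 were higher in *nm2* and 3 lower, beside 8.83% and 15% of all genes. Since the lists were chosen for their values, their counts support nothing. Among them *BGIBMGA012262*, *BGIBMGA012263* and *BGIBMGA012265* (sensory neuron membrane protein 2-like) were at 1.24, 1.27 and 1.13 FPKM in the wildtype and at 19.5, 14.9 and 12.6 FPKM in *nm2*. Their numbers lie close together, and all 3 have the same name, so reads may be shared between them. *BGIBMGA011171* and *BGIBMGA011172* (scavenger receptor class B member 1-like) were at 6.23 and 7.37 FPKM in the wildtype and at 28.9 and 27.7 FPKM in *nm2*, while *BGIBMGA011408* and *BGIBMGA011409* of the same name were at 60.4 and 55.2 FPKM in the wildtype and at 29.3 and 21.1 FPKM in *nm2*.

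Of 9 genes named as acyl-CoA synthetases or ligases, a family that activates fatty and other organic acids, 2 were higher and 3 lower, beside 8.83% and 15% of all genes. The higher ones were *BGIBMGA004248* and *BGIBMGA004249* (acyl-CoA synthetase family member 3), and among the lower were *BGIBMGA010069* and *BGIBMGA010070* (short-chain family member 3). *BGIBMGA008853* (long-chain-fatty-acid--CoA ligase 5-like) was at 85.7 FPKM in the wildtype and 9.44 FPKM in *nm2*, and *BGIBMGA003709* (ACSBG2) at 73.7 and 148 FPKM, just short of the limit. Of 8 fatty acid transport proteins 0 were higher and 1 was lower (12.5% called, beside 23.8% of all genes). This was *BGIBMGA006189* at 49.4 FPKM in the wildtype and 12.8 FPKM in *nm2*.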
